A study of Homo sapiens with 4 samples.

Results

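A group of 7 housekeeping genes known for high transcription was followed through 3 chromatin immunoprecipitation lists: ACTB, ACTG1 and TUBA1B (cytoskeleton), GAPDH and ENO1 (glycolysis), EEF1A1 (translation) and FTH1 (iron storage). A region belonged to a gene if it overlapped the hg19 span of that gene widened by 5 kb on each side. This rule gave 7 genes with 20 of 11604 regions for 53BP1, 9 of 62530 for RNA polymerase II phosphorylated on serine 5 (S5p) and 7 of 54600 for the serine 2 form (S2p). The cells were MCF10A, an immortalised, non-tumour human breast epithelial line grown under normal conditions with no treatment, and the series holds 1 library each of 53BP1, S5p, S2p and an input, of which the input was not analysed here. With 1 library per ChIP no value has a replicate error and no test was made. The fold given for each region is the authors' own enrichment over background, and it ranks regions within its own list only. The number of reads behind each list is unknown. RNA was not measured, and markers of breast epithelium were not examined, so the name of the group rests on knowledge of these genes.

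RNA polymerase II carries a long tail of repeats that is phosphorylated as transcription proceeds. The serine 5 mark is set near the start of a gene, and the serine 2 mark builds up along the gene and is densest around and beyond the polyadenylation site, where the transcript is cut and the polymerase slows before it leaves the DNA. 53BP1 reads histone marks at DNA breaks and has p53 as a partner, and the title of the series places it in transcription by the p53 family. Housekeeping genes such as these are transcribed in nearly every cell, mostly from promoters rich in G and C, and short ones bring start and polyadenylation site close together.

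The spans were short apart from that of ENO1. ACTG1 spans 2896 bp, FTH1 3376 bp, ACTB 3454 bp, TUBA1B 3739 bp, GAPDH 3953 bp and EEF1A1 5283 bp, against 18093 bp for ENO1. The gene start is taken here as the 5′ end of the span. RefSeq's span in its own build is shorter by 406 bp for ENO1, 125 bp for TUBA1B, 98 bp for GAPDH, 67 bp for ACTG1 and 26 bp for FTH1, and of equal length for ACTB and EEF1A1, so a distance from either end can be off by that much. ACTB, GAPDH, EEF1A1, FTH1 and the tubulin and actin genes have processed pseudogenes elsewhere, and how reads that match several places were treated is not given in the sources used here.

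The promoters below are shown because the strongest 53BP1 region and the S5p summit of each gene lay at the gene start. The 53BP1 and S5p summits themselves lay 27 to 446 bp inside the spans and not in the bases before the start. No position was converted between builds, so the motifs are not placed against the regions. RefSeq's promoter table (GRCh38.p14) held 5 of the 7 genes, all but ACTB and FTH1. The GAPDH entry starts 747 bp inside RefSeq's own gene and is not shown. For the other 4, the 250 bases before the start are printed 5′ to 3′ along the gene's strand, with motif matches on either strand in capitals.
ACTG1: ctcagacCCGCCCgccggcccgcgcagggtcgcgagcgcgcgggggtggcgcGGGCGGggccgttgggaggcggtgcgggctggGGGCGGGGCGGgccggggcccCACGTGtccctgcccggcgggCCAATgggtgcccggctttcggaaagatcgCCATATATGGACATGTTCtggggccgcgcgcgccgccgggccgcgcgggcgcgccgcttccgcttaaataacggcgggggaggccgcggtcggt
EEF1A1: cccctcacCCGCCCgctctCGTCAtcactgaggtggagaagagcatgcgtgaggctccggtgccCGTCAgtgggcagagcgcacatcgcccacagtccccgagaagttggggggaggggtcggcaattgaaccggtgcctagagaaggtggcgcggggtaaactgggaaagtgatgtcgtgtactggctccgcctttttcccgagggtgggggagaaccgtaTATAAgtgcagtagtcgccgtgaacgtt
TUBA1B: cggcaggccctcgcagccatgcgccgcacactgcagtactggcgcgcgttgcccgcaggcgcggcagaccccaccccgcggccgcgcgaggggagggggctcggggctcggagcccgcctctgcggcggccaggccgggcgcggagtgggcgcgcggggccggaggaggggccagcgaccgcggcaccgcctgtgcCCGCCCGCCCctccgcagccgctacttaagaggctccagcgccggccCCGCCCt
ENO1: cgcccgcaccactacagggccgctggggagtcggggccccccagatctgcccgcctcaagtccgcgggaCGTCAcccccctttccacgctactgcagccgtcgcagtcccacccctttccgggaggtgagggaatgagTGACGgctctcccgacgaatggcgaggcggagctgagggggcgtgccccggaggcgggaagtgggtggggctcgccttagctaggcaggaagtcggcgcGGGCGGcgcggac

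All 4 promoters held a GC box (GGGCGG), the letters bound by Sp1-type factors, as did 42.6% of the 35116 promoters in the table. Only the EEF1A1 window held a TATA box (TATAA, 18.9% of all promoters), beginning 28 bases before the start. EEF1A1 and ENO1 held the core letters of an ATF/CREB site (TGACG, 21.2%). ACTG1 was the richest in matches: a CCAAT box (CCAAT, 32.0%), an E-box (CACGTG, 6.34%), a CArG box (1.16%), which is the site of serum response factor, and a p53 half-site (5.57%). The CArG box begins 94 bases and the p53 half-site 86 bases before the start, so they share 2 bases. GC boxes overlap each other in ACTG1 and in TUBA1B. G and C made up 61.6% of the EEF1A1 window, 72.0% of ENO1, 78.8% of ACTG1 and 81.2% of TUBA1B, against a median of 58.0% over the table. The ratio of observed to expected CpG was 0.864 for EEF1A1, 0.836 for ENO1, 1.14 for ACTG1 and 0.923 for TUBA1B, against a median of 0.558. A match is a string of letters and not a bound site.

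At every one of the 7 genes the 3 ChIPs followed a common layout. The strongest 53BP1 region and the S5p summit lay within 446 bp of the gene start, 1 wide S5p region ran over the whole span, and the S2p summit lay beyond the 3′ end. A further 53BP1 region, by definition weaker than the strongest one, followed past the 3′ end of each gene. Weaker 53BP1 regions also lay upstream of ACTG1, and upstream of and inside EEF1A1. Pooled over the bases of the 7 spans, S5p regions covered 100%, S2p regions 98.1% and 53BP1 regions 15.6%. By gene, 53BP1 covered 8.15% to 33.8% of the span, with a median of 18.7%.

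**Figure D1:**
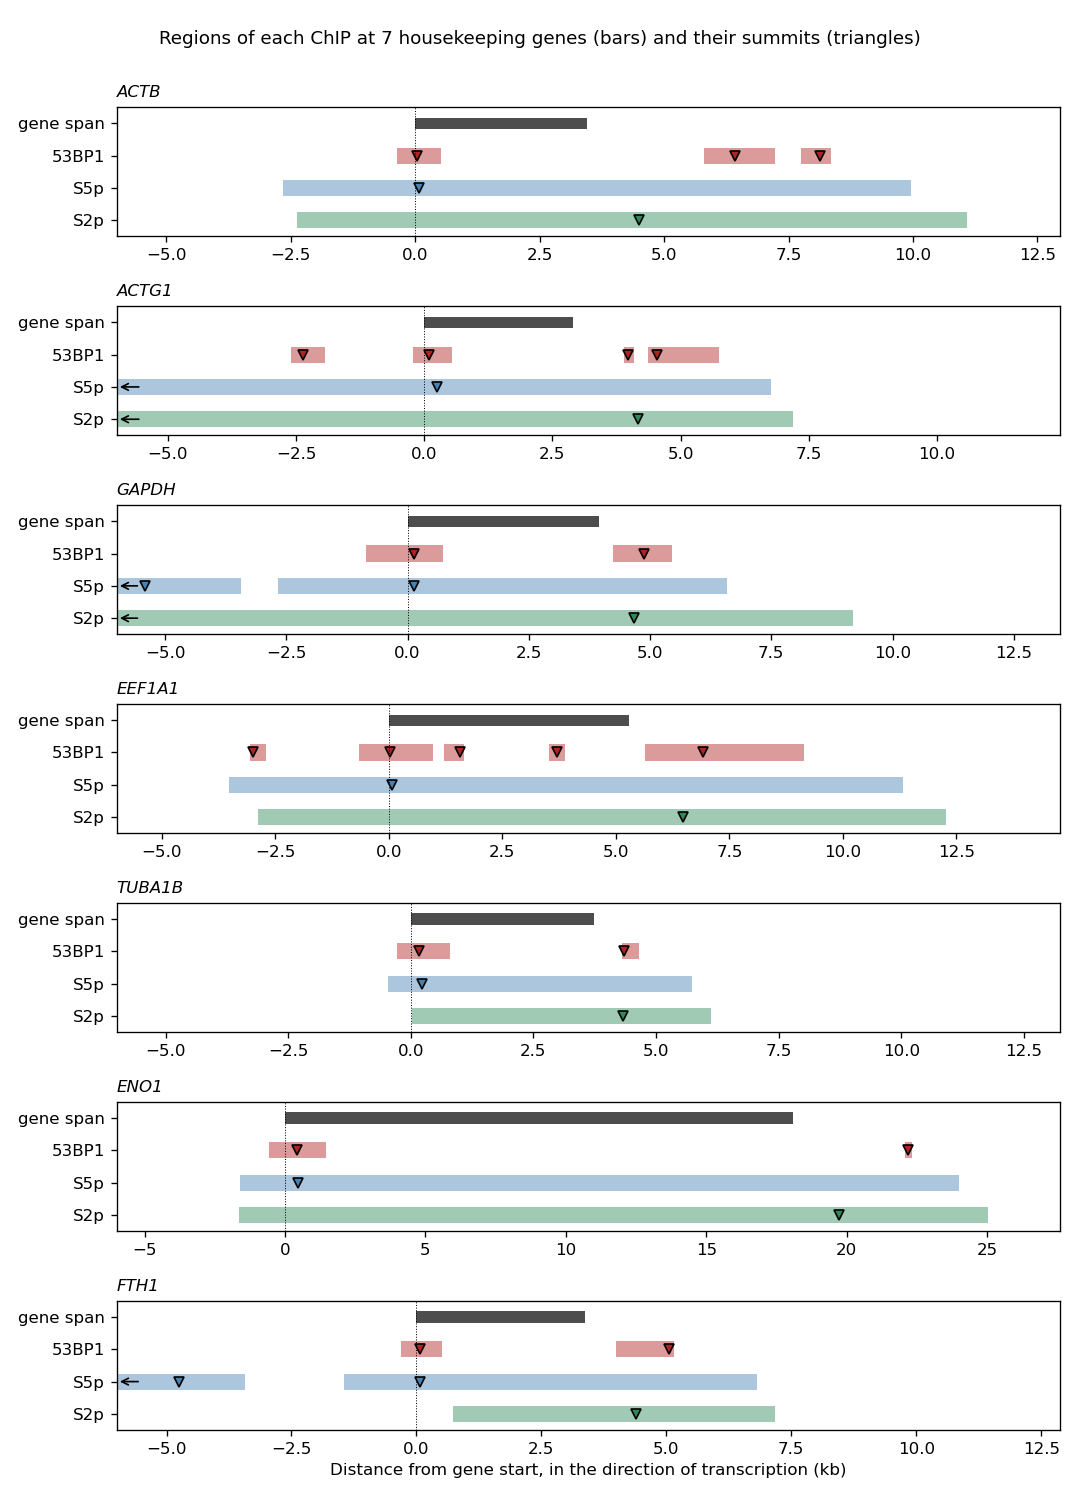
Position of the gene span (dark bar), and of the 53BP1, S5p and S2p regions (coloured bars) and their summits (triangles), against the distance from the gene start in kb along the direction of transcription. Arrows mark regions that run beyond the panel, and the ENO1 panel has a longer axis; the S5p summit sits at the start and the S2p summit past the span in all 7 panels.

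ACTB and ACTG1 encode the cytoplasmic beta and gamma actins. ACTB, at chr7:5566779-5570232, had the highest 53BP1 fold of the 7 genes, 34.2, in a region of 895 bp at the start (chr7:5569705-5570599), which was rank 42 of the 53BP1 list. Its S5p region spanned 12617 bp (chr7:5560280-5572896) with a fold of 124 at rank 143, and its S2p region 13454 bp (chr7:5559149-5572602) with a fold of 94.7 at rank 86. As a percentile of its own list, each of the 3 ACTB regions lay near the top, at 99.6 for 53BP1, 99.8 for S5p and 99.8 for S2p. ACTG1, at chr17:79476997-79479892, had a 53BP1 fold of 18.0 (rank 239) in 760 bp at the start, chr17:79479352-79480111. Its S5p fold was 138 (rank 106) and its S2p fold 92.3 (rank 92), both close to those of ACTB. The actin genes therefore had like polymerase folds, with a 53BP1 fold at the start lower at ACTG1 than at ACTB. ACTG1 also had an upstream 53BP1 region, chr17:79481819-79482486, with its summit 2358 bp before the start. The fold of this region, 4.91 (rank 7768), was above those of the ACTG1 regions past the 3′ end (4.74 and 3.99). The S2p region of ACTG1 was the widest of the 7 genes, 61442 bp (chr17:79472700-79534141). It ran 54249 bp upstream of the start, on the side where RefSeq lists FSCN2, FAAP100 and NPLOC4 as the next coding genes. The part of these neighbours in the region was not tested.

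TUBA1B, the alpha tubulin 1b gene at chr12:49521566-49525304, was the weakest of the 7 genes for S2p and the third weakest for S5p. Its S2p fold was 40.7 (rank 620) and its S5p fold 56.0 (rank 1313). The 53BP1 region at its start, chr12:49524513-49525589, had a fold of 14.1 (rank 520). Among the strongest polymerase regions of each gene, those of TUBA1B were also the narrowest, 6199 bp for S5p and 6099 bp for S2p. The S2p region of TUBA1B began only 29 bp inside the span, so no S2p region was called upstream of this gene, on the side of its antisense neighbour TUBA1B-AS1.

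GAPDH and ENO1 encode glycolytic enzymes, glyceraldehyde-3-phosphate dehydrogenase and enolase 1. GAPDH, at chr12:6643585-6647537, had a 53BP1 fold of 24.4 (rank 116) in 1597 bp at the start, chr12:6642730-6644326. Its S5p fold was 134 (rank 113) and its S2p fold 86.9 (rank 103), ranks that cannot be compared across lists of different length. A second S5p region with a fold of 4.54 (rank 23086) lay upstream, with its summit 5413 bp before the start, in a neighbourhood that RefSeq gives to the divergent transcript GAPDH-DT and to NCAPD2. ENO1, at chr1:8921059-8939151, had the lowest 53BP1 fold of the 7 genes, 13.5 (rank 605), in the widest start region, 2039 bp (chr1:8937678-8939716). Its S5p fold was 50.9 (rank 1701) and its S2p fold 53.4 (rank 345). S5p and S2p each formed 1 unbroken region over this longer gene, of 25616 and 26662 bp. 53BP1 covered 8.15% of the span, the smallest share of the 7 genes, but the span is also the longest. In bases, 53BP1 covered 1474 bp of it, behind only the 1785 bp at EEF1A1.

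EEF1A1, at chr6:74225473-74230755, encodes the elongation factor that brings aminoacyl-tRNA to the ribosome, and led the group in both polymerase lists. Its S2p fold of 182 was rank 6 and its S5p fold of 184 was rank 34. The 53BP1 region at the start, chr6:74229775-74231409, had a fold of 24.6 (rank 109), below that of ACTB. EEF1A1 held 5 of the 20 53BP1 regions, more than any other of the genes. Of these, 2 lay inside the gene, with summits 1561 and 3695 bp from the start and folds of 3.47 and 3.60. Another had its summit 2985 bp upstream with a fold of 3.81, towards EEF1A1-AS1. The fifth, past the 3′ end, was a broad and strong one described with the 3′ ends.

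FTH1, at chr11:61731757-61735132, encodes the ferritin heavy chain, which oxidises and stores iron, and was the exception in the S5p list. Its S5p fold was 9.10 (rank 11963), against 50.9 to 184 for the other 6 genes. The same region, chr11:61728326-61736577, had a −log10 q-value of 459, which was rank 1779. Of the 1779 S5p regions with a −log10 q-value at least that high, FTH1 had the lowest fold, against a median of 64.2 (quartiles 52.1 and 81.7). The other lists showed no such gap: the 53BP1 fold at the start was 17.3 (rank 274, and rank 251 by −log10 q-value), and the S2p fold was 43.9 (rank 528, and rank 206 by −log10 q-value). Its strongest 53BP1 region, chr11:61734620-61735434, was also the only one of the 7 that did not meet an S2p region, since S2p began 729 bp inside the span. Over the whole 53BP1 list, 78.9% of regions met S2p. S2p covered 78.4% of the FTH1 span, against 99.2% of TUBA1B and 100% of the other 5 genes. A second S5p region with a fold of 3.78 had its summit 4758 bp upstream. BEST1 and LOC399900 lie within 5 kb of FTH1 in RefSeq, and their part in these values was not tested.

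**Figure D2:**
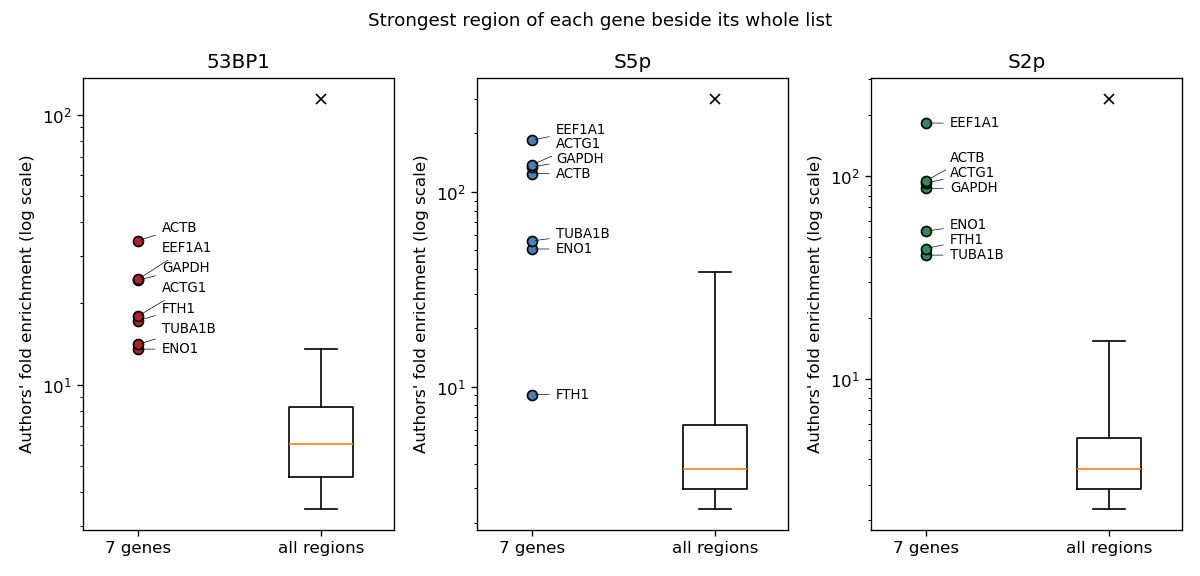
Authors' fold enrichment on a log axis for the strongest region of each of the 7 genes (points) and for all regions of the same list (box at the quartiles, line at the median, whiskers at the 5th and 95th percentiles, cross at the highest value). The gene folds run from 13.5 to 34.2 for 53BP1 and from 40.7 to 182 for S2p; in the S5p list FTH1 at 9.10 sits apart from 50.9 to 184.

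Set within its list, the median fold of the 7 strongest 53BP1 regions was 18.0, against 6.02 for the whole list, and their percentiles ran from 94.8 to 99.6 (median 97.9). Each was picked as the highest of its gene, and that choice by itself raises these values. The other 53BP1 regions of the genes had folds of 2.81 to 12.0, all below 6.02 apart from the EEF1A1 region at 12.0. For S5p the median fold was 124, against 3.76 for the list, with percentiles from 80.9 (FTH1) to 99.9. For S2p it was 86.9, against 3.58, with percentiles from 98.9 to 99.99. The order of the genes was not the same in the 3 lists. By S5p fold it ran EEF1A1, ACTG1, GAPDH, ACTB, TUBA1B, ENO1 and FTH1. By S2p fold it ran EEF1A1, ACTB, ACTG1, GAPDH, ENO1, FTH1 and TUBA1B, and by 53BP1 fold ACTB, EEF1A1, GAPDH, ACTG1, FTH1, TUBA1B and ENO1. Neighbours such as EEF1A1 and GAPDH for 53BP1 (24.6 and 24.4), or ACTG1 and FTH1 (18.0 and 17.3), have no replicate spread to be told apart by.

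At the gene starts the 53BP1 and S5p summits were close together. The distance between them was 2 bp at GAPDH, 8 bp at FTH1, 10 bp at ENO1, 37 bp at ACTB and EEF1A1, 65 bp at TUBA1B and 150 bp at ACTG1. The median over the 7 genes was 37 bp, against 57 bp (quartiles 18 and 159) for the strongest 53BP1 region on the other 9500 S5p regions that held one. Among the 798 of these that were at least as strong as the S5p region of ENO1 and at least as wide as that of TUBA1B, the median was 23 bp (quartiles 7 and 71). The member median lay between these values. Both summits lay inside the span at all 7 genes, with 53BP1 27 to 436 bp and S5p 64 to 446 bp from the start. In each pair the 53BP1 summit was the nearer one to the start, by the same 2 to 150 bp. The largest distances from the start, 436 bp for 53BP1 and 446 bp for S5p, were those of ENO1, the gene whose span is 406 bp longer than in RefSeq.

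**Figure D3:**
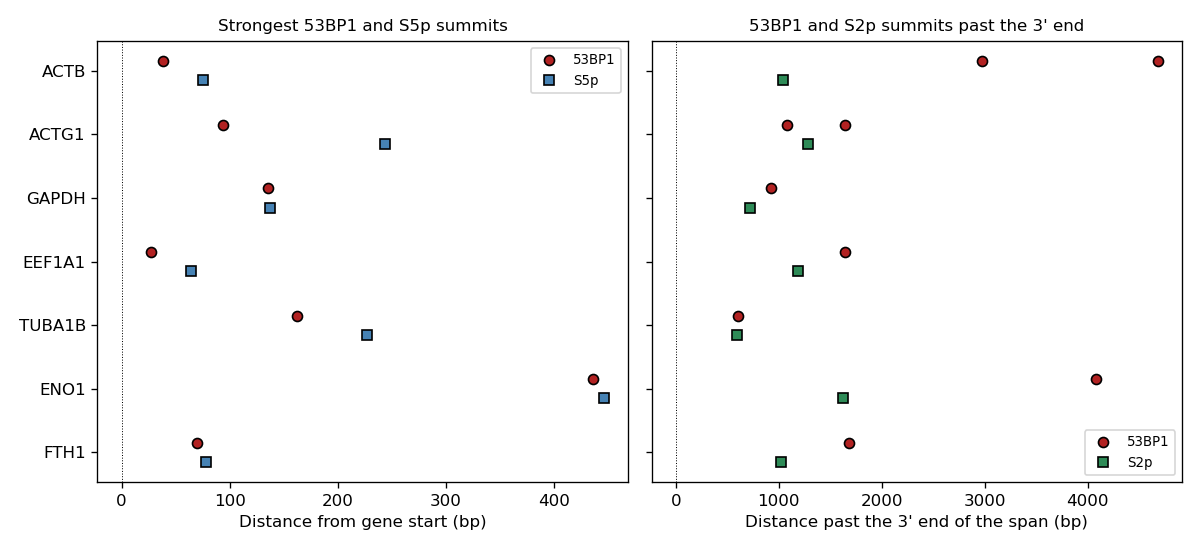
Left, distance in bp from the gene start to the summit of the strongest 53BP1 region (circles) and of the strongest S5p region (squares) of each gene. Right, distance in bp past the 3′ end of the span for each 53BP1 summit (circles) and S2p summit (squares) there; S2p summits lie 594 to 1623 bp past the end, and the 53BP1 summits of ACTB and ENO1 lie farther out.

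Past the 3′ ends, the S2p summit and a 53BP1 region recurred at all 7 genes. The S2p summit lay 594 bp past the 3′ end at TUBA1B, 719 bp at GAPDH, 1018 bp at FTH1, 1045 bp at ACTB, 1188 bp at EEF1A1, 1280 bp at ACTG1 and 1623 bp at ENO1. The spans run from 2896 to 5283 bp apart from that of ENO1, which is 18093 bp. ENO1 had both the longest span and the largest distance past the end, and its S2p summit was 19715 bp from the start. S5p regions also ran on past the 3′ end, by 1999 to 6499 bp, and S2p regions by 2389 to 7630 bp. The S2p region ended farther out than the S5p region at each gene. No hg19 annotation was at hand to say how often an S2p summit lies past the 3′ end of other genes.

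Of the 20 53BP1 regions, 9 had their summit past a 3′ end, against 9 inside a span and 2 upstream. As for the S2p summits, how often a 53BP1 region lies past the 3′ end of other genes was not determined. The region past the end of EEF1A1, chr6:74221623-74225122, had a fold of 12.0 (rank 884) over 3500 bp and was the widest 53BP1 region of the group. ACTB had 2 such regions, with folds of 5.76 (rank 6163) and 3.68 (rank 10662), and ACTG1 had 2, with folds of 4.74 and 3.99. The folds were 4.72 at ENO1, 4.41 at FTH1, 4.33 at GAPDH and 2.81 at TUBA1B, which was rank 11553 of 11604 and so among the weakest of the list. Apart from that of EEF1A1, every one of these folds was below the list's median of 6.02. The fold at the start exceeded the strongest one past the end by 2.05 times at EEF1A1, 2.87 at ENO1, 3.79 at ACTG1, 3.92 at FTH1, 5.03 at TUBA1B, 5.64 at GAPDH and 5.94 at ACTB. The start region is the strongest of its gene, so the direction of each ratio follows from that choice. With the −log10 q-value limited to 5 and above, 3 of the 7 genes kept a 53BP1 region past the 3′ end, namely EEF1A1 (28.6), ACTB (8.31) and GAPDH (5.65). Downstream neighbours within 5 kb in RefSeq were IFFO1 at GAPDH, BEST1 and LOC107984334 at FTH1 and LOC221946 at ACTB, and their part was not tested. The 4 genes with none, ACTG1, EEF1A1, TUBA1B and ENO1, also had a region past the end, but only that of EEF1A1 met this limit. The highest −log10 q-value past the end was 4.97 at ACTG1, 4.66 at ENO1 and 1.61 at TUBA1B.

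**Figure D4:**
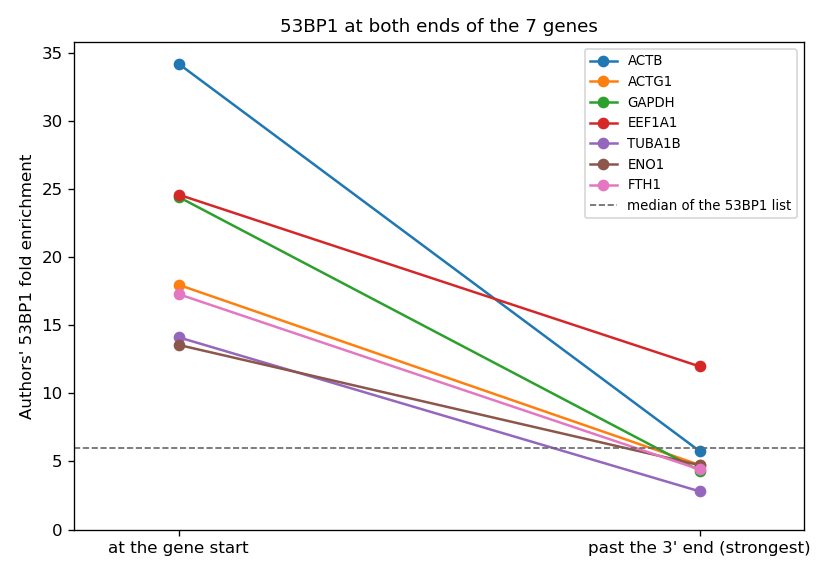
Authors' 53BP1 fold enrichment of the region at the gene start and of the strongest region past the 3′ end, joined by a line for each of the 7 genes. The start region is the strongest of its gene, so all 7 lines go down by that choice. EEF1A1 is at 12.0 past the end, and the other 6 lie below the list's median of 6.02 (dashed line).

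These 53BP1 regions lay near the S2p summit at 5 of the 7 genes. The nearest 53BP1 summit past the end was 12 bp from the S2p summit at TUBA1B, 201 bp at ACTG1, 205 bp at GAPDH, 455 bp at EEF1A1 and 667 bp at FTH1. The regions of TUBA1B, ACTG1 and FTH1 at these distances had −log10 q-values of 1.61, 3.02 and 4.70, below the limit of 5. Only those of GAPDH (5.65) and EEF1A1 (28.6) met it. At ACTB the nearest summit was 1923 bp and at ENO1 2452 bp away, in both cases farther downstream. The ACTB region met the limit (8.31) and the ENO1 region (4.66) did not. The S2p summit itself lay inside a 53BP1 region at GAPDH, EEF1A1, TUBA1B and FTH1. Over the whole S2p list, 12.4% of summits were within 1 kb of a 53BP1 summit. Among the 613 other S2p regions at least as strong as that of TUBA1B the share was 64.8% (397 regions, exact 95% interval 60.8 to 68.5). Of those, 349 had their summit at least 3931 bp from the strongest S5p summit, the smallest such distance among the 7 genes, and 203 of them (58.2%, interval 52.8 to 63.4) were within 1 kb of a 53BP1 summit. The member share of 5 of 7 has an interval of 29.0 to 96.3, too wide to tell it from either of these values. The 7 genes were also chosen and not drawn at random, and both cut-offs were set from them, so no conclusion is drawn. The intervals cover counting error over regions taken as independent and not the spread between libraries.

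Of the 9 S5p regions at the 7 genes, 7 held 53BP1 and the weak upstream ones of GAPDH and FTH1 did not; over the whole list 15.2% of S5p regions held it. All 7 S2p regions held 53BP1, against 13.9% of the list and 84.0% (interval 80.9 to 86.8) of the 613 others at least as strong. Among 1695 other S5p regions with a fold at or above that of ENO1, 99.5% held 53BP1, so its presence at the 6 genes of that strength was shared by nearly all S5p regions as strong. Each of the 7 main S5p regions held at least 2 53BP1 regions, against 1.91% of the S5p list. That share was higher among strong, wide regions: of the 801 other S5p regions at least as strong as that of ENO1 and at least as wide as that of TUBA1B, 375 held 2 or more (46.8%, interval 43.3 to 50.3). FTH1 does not reach that fold.

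The 5 kb limit left little near it. The farthest regions inside were the weaker ACTB region past the 3′ end (gap to the span 4305 bp, 53BP1 fold 3.68) and the ENO1 one (3978 bp, fold 4.72). The nearest outside were 53BP1 regions of ACTB at 5536 bp (fold 4.11) and of ACTG1 at 5982 bp on its upstream side (fold 4.32). The next polymerase region outside was an S2p region 7828 bp beyond EEF1A1 (fold 2.04).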

How the data were processed

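The deposited files were lists of enriched regions in narrowPeak form, 1 per ChIP, for 53BP1, S5p and S2p in MCF10A cells. Per the submitters' processing notes, the genome build was hg19 and bcl2fastq 2.20.0.422 was used. The names of the aligner, the peak caller and the control sample were not given in the sources used here. Per the labels' protocols, chromatin was fixed with formaldehyde and sonicated. Each deposited list carries 1 library name, which does not settle whether reads were pooled. The fold is the authors' ratio over background, and the −log10 p-value and −log10 q-value are the authors' as deposited, with a lowest −log10 q-value of 1.30 to 1.32. The deposited score was 10 times the −log10 q-value to within 1 throughout (100% of rows) and was not used further.

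The 53BP1, S5p and S2p lists lost 1, 2 and 1 rows that lay outside chromosomes 1 to 22 and X. The 7 genes and the quantities were chosen with earlier results of these data known. Regions overlapping a span widened by 5 kb by at least 1 bp were listed; all 7 genes are named. Ranks and percentiles are by fold within a list of all regions. Distances run from the summit, along the textbook strand, which RefSeq's promoter table shares for the 5 genes it holds. Shares have exact Clopper-Pearson 95% intervals. Gene neighbours come from RefSeq (GRCh38.p14), with no position converted. Overlap, distance and coverage functions were tested on simulated data. Alternatives were other windows, a −log10 q-value limit of 5, ranking by −log10 q-value and other overlap rules. Computation used scipy 1.17.1, pandas 2.3.3 and numpy 2.4.6 in Python 3.11.15, and matplotlib 3.10.9 for plots.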

Additional observations from a re-analysis of the deposited data

How the results depend on the processing

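The counts of genes with a 53BP1, S5p or S2p region stayed at 7 under every alternative window (no widening, 1 kb and 10 kb), with the −log10 q-value limited to 5 and above and with the summit required inside the window. The share of other genes whose windows hold a region was not determined, so these counts do not set the 7 genes apart. With ranking by −log10 q-value the median percentile was 99.9 for S5p (99.8 by fold) and 99.9 for S2p. Spans widened by 1 kb were covered to 21.4% by 53BP1, 99.0% by S5p and 94.97% by S2p, and 53BP1 with the −log10 q-value limited to 5 and above covered 13.7% of the spans. With no widening, 100% of the S5p regions held 53BP1, against 77.8%, since the upstream regions of GAPDH and FTH1 leave the set. Genes with 53BP1 past the 3′ end numbered 7 with spans widened by 5 or 10 kb, 5 with 1 kb, where the regions of ACTB and ENO1 fall outside the window, and 3 with the −log10 q-value limited to 5 and above. In the 5 kb windows, all 4 genes with no annotated gene there had one, and EEF1A1 alone of them kept it at that limit. The part of neighbours was not tested. These counts and the S5p median without FTH1 were added after seeing the data. No paired analysis was possible because the ChIPs have no replicates. The depth is unknown, so a place with no region is one where none was detected at this depth.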
